A study of Homo sapiens with 6 samples.

Results

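The nuclear-encoded subunits of the mitochondrial respiratory chain were examined in LS174T, an established line of human colon adenocarcinoma that makes mucin, after exposure to CompE or to its vehicle. The members were 59 genes taken by symbol, 35 of complex I, 4 of complex II, 9 of complex III and 11 of complex IV. NDUFA4 was counted with complex IV, to which its protein is now assigned. Of the 59, 52 could be measured, among 14308 genes tested in all. NDUFC2, NDUFS5, NDUFS8 and UQCRH had probe sets that the annotation gives to several genes and were left out, and NDUFA4, SDHB and UQCRFS1 were not analysed here. Each group held 3 cultures of the same line, with 1 Affymetrix Human U133 Plus 2.0 array per culture. One group received DMSO and the other CompE at 250 nM, both for 48 h, in medium with serum. The labels name the agent only as CompE; under that abbreviation Compound E is usually meant, which blocks gamma-secretase and with it the cleavage that activates Notch receptors. The sample titles call the cultures biological replicates of 1 line, so p-values measure the spread between these cultures and not between tumours. The arrays measure bulk RNA, in which fewer cells of a type and less RNA per cell cannot be told apart.

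The respiratory chain sits in the inner mitochondrial membrane. Complex I takes electrons from NADH and complex II from succinate, and both pass them to ubiquinone. Complex III hands them on to cytochrome c, and complex IV delivers them to oxygen. Complexes I, III and IV pump protons as they work, and ATP synthase uses the resulting gradient. Most subunits are encoded in the nucleus, while the mitochondrial genome supplies a core of complexes I, III and IV. In the intestinal epithelium, the balance of oxidative metabolism and glycolysis is known to differ between stem, absorptive and secretory cells.

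Levels are given as linear probe set intensities, with the brightest probe set standing for its gene. Differences are log2 CompE minus log2 DMSO, and the words rose and fell are kept for genes whose limma p-value, adjusted by the Benjamini-Hochberg method over all 14308 genes, was under 0.05. Array medians lay between 36.9 and 38.6, and arrays of a group correlated across probe sets at r = 0.987 to 0.988. The ratio of the 3' to the 5' probe set of ACTB, which rises as RNA is degraded, was 1.42 to 1.46 in DMSO and 1.49 to 1.53 in CompE. That of GAPDH went the other way, with 0.958 to 0.979 in DMSO and 0.918 to 0.97 in CompE, ranges that overlap. The part of RNA quality in the differences between groups was not tested. The treatment was visible in the Notch target HES1 (0.356-fold of DMSO, adjusted p = 0.00198), in OLFM4 (0.164-fold, adjusted p = 0.000253), in the secretory transcription factor gene ATOH1 (6.13-fold, adjusted p = 0.000892) and in the mucin gene MUC2 (2.07-fold, adjusted p = 0.00164). All 12 markers of colon epithelium passed the filter on dim probe sets. Only CDX2, an intestinal transcription factor gene, rose (0.43, adjusted p = 0.00873), and KRT20 was the dimmest at 98.3 in DMSO. Of 6 fibroblast, 6 leukocyte and 4 endothelial markers, 5, 3 and 3 passed that filter. Their mean intensities were at most 99.2 for fibroblasts and 165 for endothelium. In the leukocyte list LYZ was bright (1580.4 in DMSO), while CD3E and CD14 were dim (34.5 and 56.1 in DMSO). The source of the LYZ signal was not tested. No marker of these 3 lists passed the test. The smallest p in each list were those of LUM (-0.28, adjusted p = 0.535), LYZ (-0.32, adjusted p = 0.132) and KDR (-0.57, adjusted p = 0.143).

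The transcripts of the respiratory chain subunits were close in level in CompE and DMSO. In the limma fit 0 of 52 members rose and 0 fell, beside a background of 7.14% of all genes tested that passed, 4.56% higher and 2.57% lower. The differences ran from -0.16 for NDUFS7 to 0.21 for NDUFA5. Their median was 0.0077, and that of all genes tested 0.02. Of the 52 members, 29 had values above 0 and 23 below 0 (44.2%), where 45.1% of all genes lay below 0. At an unadjusted p under 0.05, 4 members were higher and 2 lower, where all genes gave 15% higher and 9.55% lower. The count of 0 depends on how the variance is modelled: with a variance that follows intensity (eBayes with trend and robust), 4 members rose (NDUFA5, NDUFA6, NDUFB4 and UQCRB) and 1 fell (NDUFC1), beside 9.8% of all genes higher and 5.95% lower. Over the least variable 10896 probe sets, a selection that lowers the p-values by its construction, 6 of 49 members were higher and 4 lower, beside 25.7% and 16.9% of all genes.

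A p-value above the threshold does not show that a gene did not differ. The 95% intervals of the differences, which limma gives for each gene on its own, bound the change for the brightest probe set. Across the 52 members the lowest bound was -0.35 (NDUFV3, 1.28-fold lower) and the highest 0.34 (NDUFA5, 1.26-fold higher). All 52 of these intervals lay within 1.5-fold of no change, and 46 included 0. Dimmer probe sets left more room: the bounds were 2.01-fold lower and 1.62-fold higher with unextended probe sets preferred, and 2.23-fold lower and 1.81-fold higher over every probe set of the members. The members were measured with little scatter. The median SD within groups was 0.045 on the log2 scale for the members and 0.10 for all genes, and the median size of a difference, sign aside, was 0.048 and 0.12. All genes tested include dim ones, down to a mean intensity of 13.8, and the members were not compared with genes of like intensity. Mean intensities of the members ran from 567 (NDUFB7) to 6944 (COX7C). Every one of them was well above 45.7, the 95th percentile of 27 control probe sets against Bacillus genes, a measure of background on these arrays. Whether bright probe sets report a change at less than its true size was not tested. The zero point also depends on the scaling. Centred on the hybridisation controls added to each sample, which were 0.11 brighter in CompE, the median of all genes became -0.091 and that of the members -0.10; 3 members (NDUFS7, NDUFV3 and NDUFB10) then fell and 0 rose, beside 7.9% of all genes lower and 2.68% higher.

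**Figure D1:**
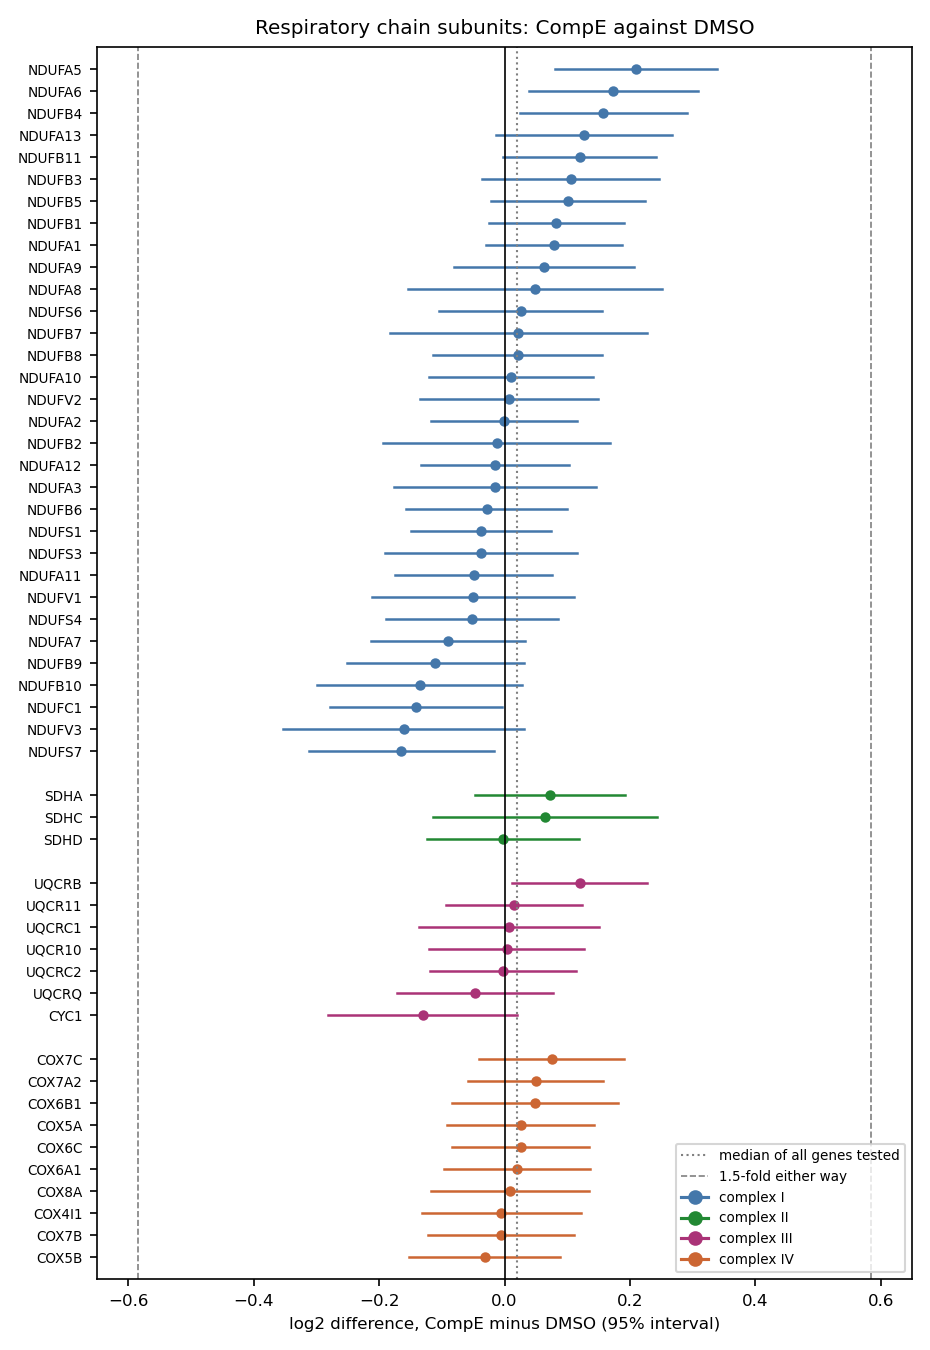
The log2 difference between CompE and DMSO (horizontal axis) for each of the 52 members, grouped by complex. Points are differences of the group means (3 arrays each), lines are limma's 95% intervals, the dotted line is the median of all 14308 genes and the dashed lines mark 1.5-fold either way. Every interval lies inside the dashed lines, and 46 of them include 0.

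Each array can be set against the DMSO mean of every gene. The median over the 52 members was 0.018, -0.02 and 0.0034 on the DMSO arrays. On the CompE arrays it was -0.0021, 0.036 and -0.0071. The groups overlapped, and only CompE replicate 2 lay above all DMSO arrays. The median of all genes tested was 0.037, 0.038 and -4.8e-05 on the same CompE arrays, which is near the members' own on replicates 2 and 3 and above it on replicate 1. For 12 members all CompE arrays were higher than all DMSO arrays and for 4 they were all lower, which is 16 of 52 beside 32.2% of all genes (19.1% higher and 13% lower).

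**Figure D2:**
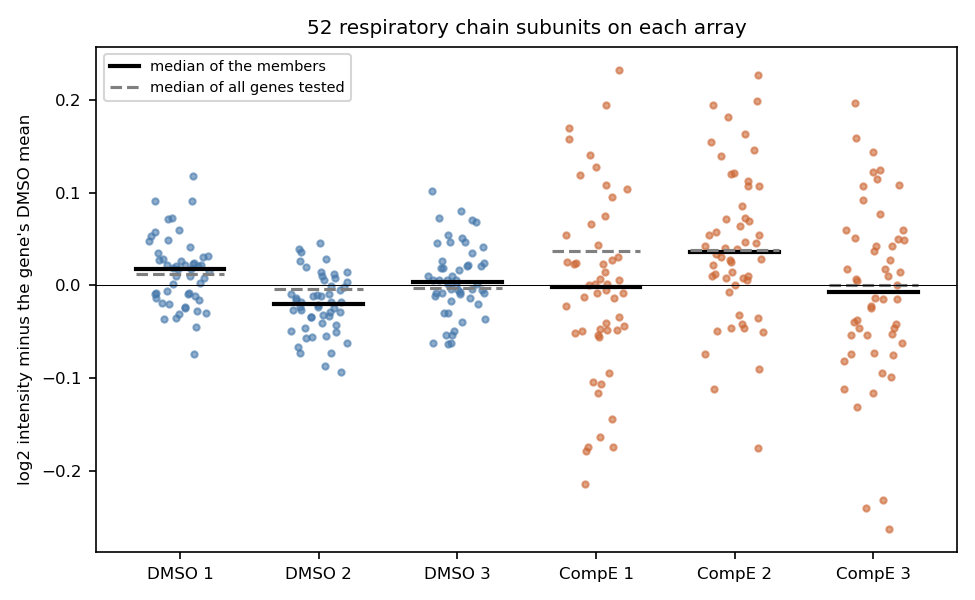
Log2 intensity of each of the 52 members minus that gene's mean over the DMSO arrays (vertical axis), for each array (horizontal axis). Points are genes, black bars the median of the members and dashed grey bars the median of all genes tested. The member medians stay between -0.02 and 0.036, and the points of both groups lie around 0.

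Promoters of respiratory chain genes are known for sites of the transcription factors NRF1 and GABPA. Promoter sequences from RefSeq (GRCh38.p14; 250 bases before to 50 after an annotated start) were found for 50 of the 59 members. The core of the NRF1 motif, GCATGCGC on either strand, was in 10 of these 50 (20.0%) and in 4.89% of 15841 protein-coding genes. The ETS core bound by GABPA, CCGGAAG on either strand, was in 15 (30.0%) beside 16.5% of coding genes. The YY1 core AAGATGGC was in 9 (18% beside 4.67%), CCAAT in 15 (30.0% beside 42.1%) and TATAAA in 5 (10.0% beside 12.4%). The 10-letter NRF1 palindrome, which holds the shorter core on both strands, was in 3 members (NDUFB4, NDUFA8 and SDHD) and in 1.99% of coding genes. In all 13 strings were searched, both strands each, after the members' values were known. The 7 not given above were longer or shifted forms of the NRF1, ETS, YY1 and CCAAT letters, the E-box CACGTG (8% of members beside 10.9%) and CGTGGGAA, the letters bound by RBPJ, the factor through which Notch acts (2% beside 1.26%). A match is a description, not a site, and the choice of NRF1 and ETS for display was made among these 13.

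The 4 complex I members with the smallest p, described next, all held the NRF1 core. They are shown for that reason, as 60 bases with the core in capitals, 5′ to 3′ on the strand of the gene.
NDUFA5: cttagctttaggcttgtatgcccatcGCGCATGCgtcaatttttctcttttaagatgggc
NDUFA6: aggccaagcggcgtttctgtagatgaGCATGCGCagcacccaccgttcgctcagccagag
NDUFB4: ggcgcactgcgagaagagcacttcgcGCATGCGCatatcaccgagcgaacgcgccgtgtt
NDUFS7: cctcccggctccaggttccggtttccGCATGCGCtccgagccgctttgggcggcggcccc
Their positions are chr7:123557943-123558002, minus strand (NDUFA5, core 151 bases before an annotated start), chr22:42090905-42090964, minus strand (NDUFA6, 159 bases), chr3:120596153-120596212, plus strand (NDUFB4, 150 bases) and chr19:1383808-1383867, plus strand (NDUFS7, 66 bases). In NDUFA5 the core is on the opposite strand, and in NDUFB4 it overlaps its own reverse complement by the palindrome. NDUFA5, NDUFA6 and NDUFB4 had positive differences and NDUFS7 a negative one, so that the core went with both signs. Neither NDUFC1 nor UQCRB, which also had an unadjusted p under 0.05 by limma, was among the members in which the core was found. Promoters were found for 50 of the 59 members, so a member not found with the core may also have had no promoter to search. The 4 sequences shown were picked by p from the same data, and a link between the core and the differences was not tested. Among measured members with a promoter in the table, the 9 with the core had a median difference of 0.026 (range -0.16 to 0.21) and the 37 without it 0.0034 (-0.16 to 0.13).

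The ETS core is shown in the same way for a complex I subunit (NDUFS1, difference -0.037) and a complex III subunit (UQCRQ, difference -0.047). The value of UQCRQ was the lowest among the measured members with this core.
NDUFS1: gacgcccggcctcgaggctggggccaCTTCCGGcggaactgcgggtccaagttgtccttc
UQCRQ: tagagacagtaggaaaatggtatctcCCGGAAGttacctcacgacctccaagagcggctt
These are chr2:206159568-206159627, minus strand (NDUFS1, core 151 bases before the start and on the opposite strand) and chr5:132866562-132866621, plus strand (UQCRQ, 48 bases). The 13 measured members with this core lay between -0.047 and 0.13 (median 0.0082), a range inside that of the 33 without it (-0.16 to 0.21; median 0.0065).

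Complex I had the widest range of differences. Its 32 measured subunits had a median of 0.0027 and an SD between genes of 0.097, with a median standard error of 0.055; 16 lay above 0 and 16 below. The part of the enzyme that meets ubiquinone held the extremes of the whole chain. NDUFA5, an accessory subunit of that module, had intensities of 2195, 2163 and 2344 in DMSO and 2622, 2562 and 2559 in CompE. All CompE arrays were higher than all DMSO arrays, with means of 2234 ± 96.7 in DMSO and 2581 ± 36 in CompE (SD, n = 3) and a difference of 0.21 ± 0.052 (SE; adjusted p = 0.0741). The lowest adjusted p among the members was therefore short of the threshold, and it was under 0.05 when the filter on dim probe sets was raised to the lowest 60% (adjusted p = 0.0343), a setting in which 10.3% of all genes were higher and 5.85% lower. NDUFS7, a core subunit that carries the last iron-sulfur cluster before ubiquinone, had the opposite sign. Its intensities were 931, 889 and 873 in DMSO and 801, 843 and 759.7 in CompE, so that the groups did not overlap, and the difference was -0.16 ± 0.06 (SE; adjusted p = 0.167). The other ubiquinone-module subunits measured were NDUFA9, at 0.063, and the core subunit NDUFS3, at -0.037, both with overlapping groups.

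The NADH dehydrogenase module, the tip of the matrix arm where NADH is oxidised, had 10 measured subunits with a median of -0.026, and 7 of them lay below 0. NDUFA6, an accessory subunit of the family that binds acyl carrier protein, was at 2835, 2650.3 and 2694 in DMSO and 3065, 3189.7 and 2972 in CompE. Its groups did not overlap either, and the difference was 0.17 ± 0.055 (SE; adjusted p = 0.123). NDUFV3, an accessory subunit beside the flavoprotein, was at 855, 787 and 769 in DMSO and 709, 779.7 and 669 in CompE. Here CompE replicate 2 overlapped the DMSO arrays, and the difference was -0.16 ± 0.078 (SE; adjusted p = 0.271). NDUFV1, the flavoprotein that binds NADH, differed by -0.051, its partner NDUFV2 by 0.0065 and the large iron-sulfur protein NDUFS1 by -0.037. The remaining members of the module were NDUFA7 (-0.091, no overlap), NDUFS4 (-0.051), NDUFS6 (0.026), NDUFA12 (-0.015) and NDUFA2 (-0.0011).

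The membrane arm pumps protons, and its pumping subunits are encoded by the mitochondrial genome; the nuclear genes add the accessory subunits around them. Of 18 measured, 11 lay above 0 and 7 below (median 0.021). NDUFB4, one of these accessory subunits, was at 5203, 4861 and 5213 in DMSO and 5825, 5700.3 and 5510.3 in CompE. The CompE arrays were all above the DMSO arrays, with a difference of 0.16 ± 0.054 (SE; adjusted p = 0.148). NDUFC1, a small subunit of the same arm, was at 3383, 3352 and 3563 in DMSO and 3041, 3038 and 3260.0 in CompE. Its CompE arrays were all below the DMSO arrays, and the difference was -0.14 ± 0.055 (SE; adjusted p = 0.191). NDUFA13, also known as GRIM-19, NDUFB11, NDUFB5, NDUFB1 and NDUFA1 had no overlap and higher values in CompE, by 0.13, 0.12, 0.10, 0.083 and 0.078. NDUFB3 (0.11), NDUFB9 (-0.11) and NDUFB10 (-0.14) overlapped. The other 8 (NDUFA3, NDUFA8, NDUFA10, NDUFA11, NDUFB2, NDUFB6, NDUFB7 and NDUFB8) lay between -0.049 and 0.048.

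**Figure D3:**
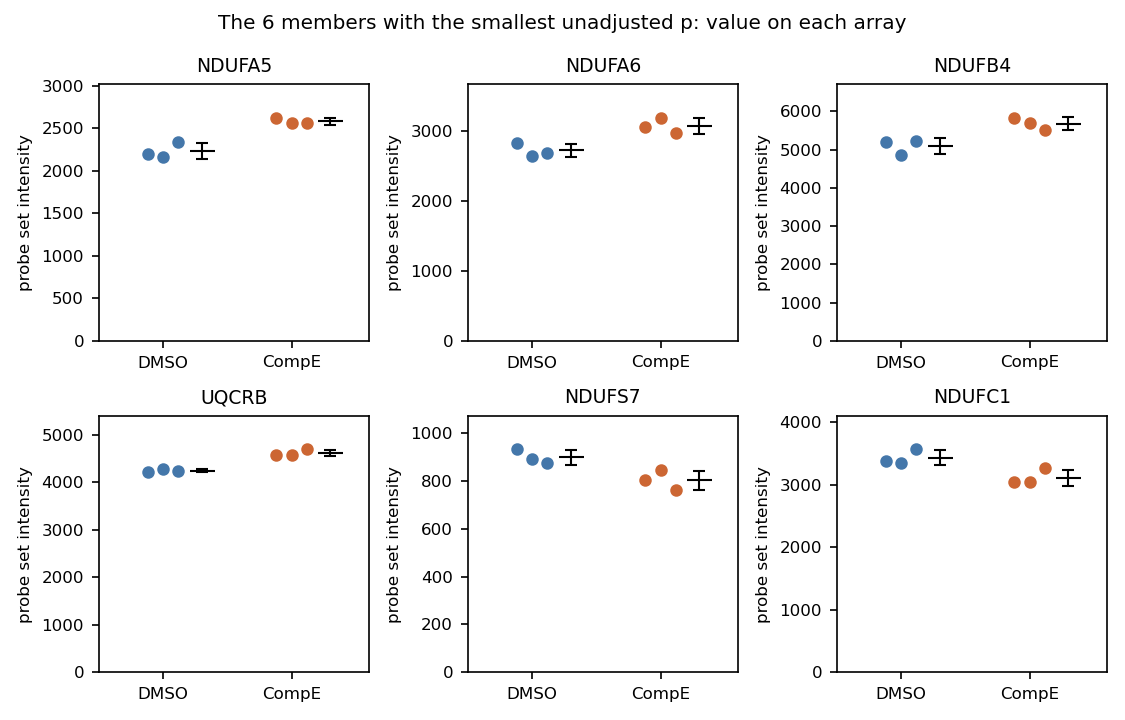
Probe set intensity (vertical axis, starting at 0) on each array for the 6 members with an unadjusted p under 0.05, with DMSO in blue and CompE in orange. Black bars give the mean ± SD of 3 arrays. NDUFA5, NDUFA6, NDUFB4 and UQCRB are higher in CompE and NDUFS7 and NDUFC1 lower, each without overlap; NDUFA5 had the largest of the 6 differences at 1.16-fold, and none passed after adjustment.

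Complex II, which is also an enzyme of the tricarboxylic acid cycle and is encoded in the nucleus throughout, had 3 measured subunits. SDHA, the flavoprotein that oxidises succinate, was at 2881, 2868 and 2833 in DMSO and 3056, 3080.2 and 2895 in CompE. All CompE arrays were higher, although CompE replicate 3 exceeded the highest DMSO array by little, and the difference was 0.073 ± 0.049 (SE; adjusted p = 0.415). The membrane anchors SDHC and SDHD differed by 0.065 (95% interval -0.11 to 0.24) and -0.0027 (-0.12 to 0.12). SDHC had 6 further probe sets, 4 of the same sign, which ran from -0.26 to 0.29. The pair with the highest values gave 0.25 and 0.29, and neither passed (adjusted p = 0.105 and 0.197 by limma over all probe sets).

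Complex III had 7 measured subunits with a median of 0.0034. UQCRB, a small subunit at the ubiquinone-binding side, was at 4221, 4291 and 4232 in DMSO and 4579, 4577 and 4692 in CompE. The arrays of each group lay close together and apart from the other group, and the difference was 0.12 ± 0.044 (SE; adjusted p = 0.168). Its 3 further probe sets had the same sign (0.082 to 0.25). CYC1, cytochrome c1, which passes electrons to cytochrome c, had the opposite sign. It was at 1698, 1612 and 1640.1 in DMSO and 1422, 1598 and 1506 in CompE, again with no overlap, and differed by -0.13 ± 0.061 (SE; adjusted p = 0.257). The core proteins UQCRC1 and UQCRC2 differed by 0.0071 and -0.0021, and the small subunits UQCR10, UQCR11 and UQCRQ by 0.0034, 0.015 and -0.047.

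Complex IV is cytochrome c oxidase. By their brightest probe sets, its 10 measured nuclear subunits lay between -0.032 (COX5B) and 0.075 (COX7C), with an SD between genes of 0.031 that was smaller than the median standard error of 0.047. COX7C, a small subunit that spans the membrane, was at 6452, 6628 and 6694 in DMSO and 6941, 6789 and 7101 in CompE, which is higher on every CompE array (difference 0.075 ± 0.047, SE, adjusted p = 0.386). COX7A2, the form of subunit 7A found in most tissues, was also higher on every CompE array, by 0.049 ± 0.044 (SE; adjusted p = 0.549). COX4I1, the ubiquitous form of a regulatory subunit that binds ATP, differed by -0.0053 (95% interval -0.13 to 0.12), and COX5A, its neighbour in the enzyme, by 0.026 (-0.091 to 0.14). COX6B1, on the outer face where cytochrome c docks, was at 0.048. COX5B, which binds zinc, was at -0.032, and its 3 further probe sets ran from -0.43 to -0.021. The lowest of them was dimmer, at 296, 248 and 241 in DMSO and 198, 151 and 239.9 in CompE, without overlap by a narrow margin and short of the threshold (adjusted p = 0.241 by limma over all probe sets). The remaining COX6A1, COX6C, COX7B and COX8A lay between -0.0057 and 0.026. The 10 intervals of complex IV reached from -0.15 to 0.19. The spread of complex I was 0.097 and that of complex IV 0.031, and whether the complexes differ in spread was not tested.

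Many of these genes have processed pseudogenes whose sequence resembles the messenger RNA. RefSeq's gene table (GRCh38.p14) lists pseudogenes named after 31 of the 52, among them 12 each for NDUFA5 and NDUFB4 and 18 for COX6C. They were counted by symbol, and whether these copies are processed or resemble the messenger RNA was not checked. The identity of the probe sets of these members is uncertain to that extent. Of the probe sets used, 24 had the plain suffix that marks probes designed for 1 transcript or gene. Another 25 had the suffix _s_at for probes shared between transcripts. The remaining 3, those of SDHA, COX4I1 and COX7C, had the suffix _x_at for probes that can cross-hybridise. For 24 members there were further probe sets past the filter, 43 in all. The sign was the same as that of the probe set used in 32 of the 43, and none of the 43 passed when probe sets were tested on their own (0 at an adjusted p under 0.05 by limma). NDUFA6 had a further probe set at 0.25 beside 0.17, whereas that of NDUFC1 was at 0.017 beside -0.14. NDUFA5, NDUFB4 and NDUFS7 had 1 probe set past the filter each.

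Transcripts for the factors themselves were measured on the same arrays. Of 16 regulators of mitochondrial gene expression, 0 rose and 1 fell (median -0.021). POLRMT, the RNA polymerase of mitochondria, fell from 539.7 ± 10.1 to 425 ± 24.1 (SD, n = 3), by 0.35 ± 0.059 (SE; adjusted p = 0.0292). That call was lost in 5 of the 6 fits that left out 1 array. Those fits called 1.76% to 3.63% of all genes, where the main fit called 7.14%. NRF1, named here for its motif after its values were seen, was at 154, 153 and 156 in DMSO and 176, 183 and 177 in CompE. The CompE arrays were all higher, and the difference was 0.21 ± 0.045 (SE; adjusted p = 0.0523). GABPA differed by 0.18 ± 0.069 (SE; adjusted p = 0.185), TFAM, the packaging factor of mitochondrial DNA, by 0.0014, and the coactivator gene PPARGC1A by 0.09 at a low intensity (66.3 in DMSO). Others had the opposite sign without overlap: TFB1M at -0.26 ± 0.059 (SE; adjusted p = 0.0588), TEFM at -0.16 and TFB2M at -0.12. Of the 16, 4 were higher and 5 lower on all CompE arrays, beside 19.1% and 13% of all genes.

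The calls in the other oxidative phosphorylation lists are read beside the 7.14% called over all genes. Of 15 ATP synthase genes 1 rose, ATP5MF, but its probe set was dimmer than that Bacillus background in DMSO and in CompE (31.6 ± 0.338 in DMSO and 38.5 ± 1.53 in CompE; difference 0.29 ± 0.051, SE, adjusted p = 0.032). Its call was lost whichever array was left out, and the median of the list was -0.013. Of 44 assembly factors tested, 1 rose and 2 fell (median -0.018), a share close to that of all genes. SCO2, a chaperone that delivers copper to complex IV, fell from 729.6 ± 22.6 to 545 ± 23.6, by 0.42 ± 0.056 (SE; adjusted p = 0.0143). COX11, another copper chaperone, fell by 0.25 ± 0.047 (SE; adjusted p = 0.0356). COX18, which inserts the mitochondrially encoded subunit COX2 into the membrane, rose by 0.26 ± 0.055 (SE; adjusted p = 0.0493). Leaving out 1 array ended the calls of COX11 and COX18 whichever array it was, and that of SCO2 in 4 of 6 fits. The differences then lay between -0.27 and -0.23 for COX11, 0.24 and 0.30 for COX18, and -0.46 and -0.39 for SCO2. In these fits 1.76% to 3.63% of all genes were called. Of the mitochondrially encoded subunits, 7 had a probe set and limma called 0 (0 also by unadjusted p under 0.05). ND2 of complex I had the smallest p (0.076 ± 0.053, SE, adjusted p = 0.435), and COX2 of complex IV was at 12999, 12878 and 13058 in DMSO and 13554, 13205 and 13341 in CompE, a difference of 0.042.

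**Figure D4:**
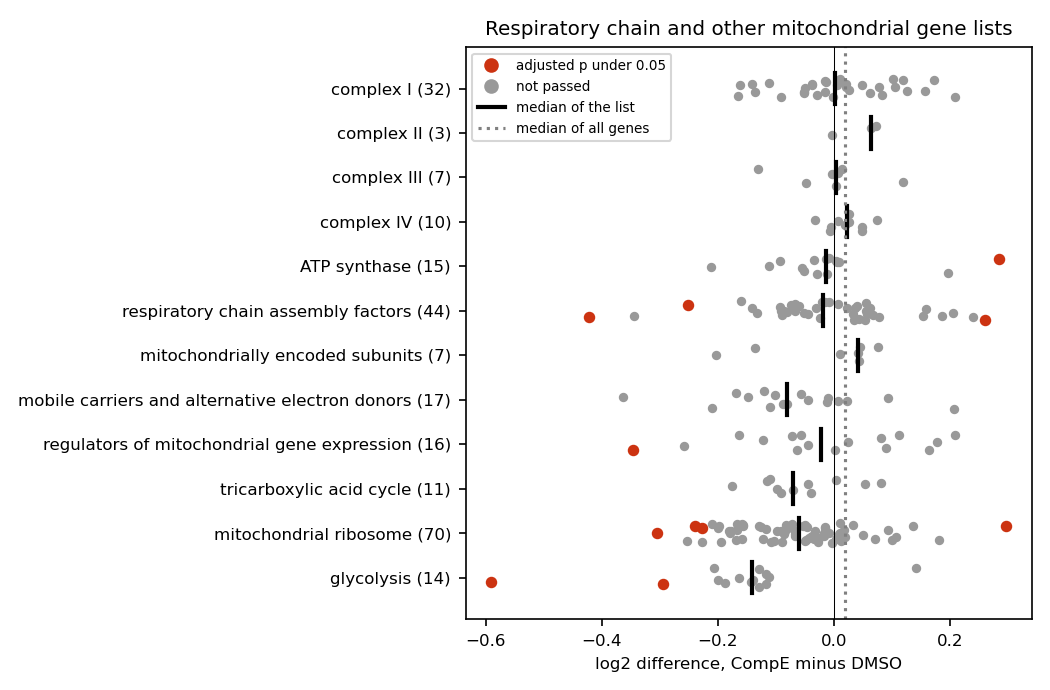
Log2 differences between CompE and DMSO (horizontal axis) for the members by complex and for other mitochondrial and glycolysis lists (vertical axis, number tested in brackets). Red points are genes with an adjusted p under 0.05, grey points the rest, black bars the median of each list and the dotted line that of all genes. The 4 complexes hold no red point, and their medians lie between 0.0027 and 0.065.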

How the data were processed

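RNA of 6 cultures was measured on 6 arrays (3 DMSO, 3 CompE, grouped by sample title). Per the labels, the authors normalized the arrays with dChip and deposited linear intensities; labelling was by in vitro transcription, per the labels' protocols. The sources used here do not state the dChip version, its use of mismatch probes or a genome build. Per the design text, the authors selected 10896 probes, and only that number was reused in one alternative. It took the 10896 probe sets past the filter with the least spread within groups on these arrays, not the authors' own list.

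Values were floored at 1 and converted to log2 without further normalization. The 62 control probe sets and the lowest 40% by mean log2 (below an intensity of 24.4) were left out. Genes were named by GEO's platform annotation, which can be old, with symbols updated by Entrez identifier for 41043 probe sets: 41097 probe sets had 1 gene, 1800 several and 11777 none, and only the first were used, with the brightest for each gene. The groups were compared with limma (3.58.1, R 4.3.3; lmFit and eBayes, two-sided, Benjamini-Hochberg over 14308 genes). The fit was checked on simulated data; that check was revised after it first failed, required calls only for changes of 2-fold and up, and says little about changes as small as those of the members. The number of arrays limits the precision (median standard error 0.082 on the log2 scale).

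The members and all lists (by complex; ATP synthase, assembly factors, tissue-restricted isoforms, mitochondrially encoded subunits, regulators, tricarboxylic acid cycle, mobile carriers and alternative electron donors, mitochondrial ribosome, glycolysis, and cell type markers) were chosen with earlier results of these data known. No set test was run. Genes were named by rule: members that passed, the 4 with the smallest p in each complex, the 3 largest differences each way, up to 3 called genes of each other list (or that with the smallest p), and HES1, OLFM4, ATOH1 and MUC2; the other members and any further genes are named beyond it. Alternatives changed the filter, normalization, floor, probe set rule and variance model, added the replicate number as a block, or left out 1 array.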

Additional observations from a re-analysis of the deposited data

How the results depend on the processing

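The count of 0 members higher and 0 lower held without the filter on dim probe sets, with quantile normalization, with arrays centred on their medians, with a floor of 16, with unextended probe sets preferred, with every probe set on its own and in the 6 fits without 1 array (0.713% to 7.81% of all genes called over these settings and the block). Apart from quantile normalization (7.81%) and the floor of 16 (7.2%), each of these settings called fewer of all genes than the main fit (7.14%). A count of 0 had little room to change in them. The lowest adjusted p of a member was 0.0781 with quantile normalization, 0.0741 with the floor of 16 and 0.0918 with unextended probe sets preferred. In the 6 fits without 1 array it lay between 0.106 and 0.208, and the members' median between -0.0086 and 0.02. The count of 0 did not hold with the stricter filter (1 higher), with eBayes with trend and robust (4 higher, 1 lower), with arrays centred on hybridisation controls (3 lower; median -0.10) and with the least variable 10896 probe sets (6 higher, 4 lower of 49 members). The stricter filter, the trend and the hybridisation controls called 16.1%, 15.8% and 10.6% of all genes. The selection of the least variable probe sets takes genes by the spread that the test divides by. Its p-values are therefore too small by construction, and 42.6% of all genes were called. With the replicate block, 0 members were higher and 0 lower (lowest adjusted p 0.196 by limma), and calls over all genes went from 653 and 368 to 70 and 32. Deviations of same-numbered arrays correlated at 0.025, -0.10 and -0.021, so no shared deviation across genes was seen. Such correlations cannot exclude that same-numbered cultures were handled together, and the sample titles do not say. Several genes named outside the members lost their calls. Without the filter on dim probe sets, ATP5MF, COX11, COX18, MRPS10, MRPS5, MRPS6, PDK1, POLRMT and SLC2A1 lost theirs (adjusted p = 0.0734 to 0.116). ATP5MF, COX18 and MRPS10 lost theirs with arrays centred on their medians, ATP5MF, COX18 and MRPS6 with the hybridisation controls, COX11, COX18, MRPS10 and SLC2A1 with unextended probe sets preferred, ATP5MF with the trend and ATP5MF, CDX2, COX11, COX18, MRPS10, MRPS5, MRPS6, PDK1, POLRMT, SCO2 and SLC2A1 with the block. MRPS5 turned to 0.053 with unextended probe sets preferred, a setting that takes another probe set of that gene in place of its brightest (-0.31). Why these probe sets differ, and the cause of the lost calls, were not tested. Over all alternatives, members newly passed 19 times and changed sign by more than their standard error 26 times. Of these 26, 23 came with the hybridisation controls, a centring that lowers every gene by the same 0.11. Intensities carry no read depth, and precision is limited by the number of arrays.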

Other observations

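Neighbouring mitochondrial functions had more values below 0 than the respiratory chain did, although the difference between lists was not tested; 7.14% of all genes passed. Of 70 genes of the mitochondrial ribosome tested, which translates the mitochondrially encoded subunits, 1 rose and 3 fell, and 53 of 70 lay below 0 (median -0.059) where 45.1% of all genes did. MRPS6 rose by 0.30 ± 0.051 (SE; adjusted p = 0.0286), MRPS10 fell by 0.23 ± 0.044 (SE; adjusted p = 0.0382) and MRPS5 by 0.31 ± 0.059 (SE; adjusted p = 0.0395); the third that fell was MRPS2, named after its values were seen (-0.24, adjusted p = 0.0433). Without 1 array, MRPS10 and MRPS5 lost their calls in all 6 fits and MRPS6 in 5, where 1.76% to 3.63% of all genes were called. Of 11 tricarboxylic acid cycle genes 0 passed in the limma fit (0 higher and 1 lower at an unadjusted p under 0.05), and 8 lay below 0 (median -0.071); SUCLG1, a subunit of succinyl-CoA ligase, had the smallest p (-0.17 ± 0.056, SE, adjusted p = 0.127). Of 17 genes for mobile carriers and alternative electron donors 0 passed (1 higher and 3 lower at an unadjusted p under 0.05) and 13 lay below 0 (median -0.081). PDSS2, a gene for the synthesis of the side chain of ubiquinone, was nearest (0.21 ± 0.045, SE, adjusted p = 0.0523). PDSS1, a gene for the same step and named after its values were seen, had the opposite sign (-0.21 ± 0.073, SE, adjusted p = 0.152). All its CompE arrays were lower than all DMSO arrays.

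Of 14 glycolysis genes 0 rose, 2 fell and 13 lay below 0 (median -0.14). SLC2A1, a glucose transporter gene, fell by 0.59 ± 0.098 (SE; adjusted p = 0.0269) and PDK1, a kinase that restrains entry of pyruvate into mitochondria, by 0.29 ± 0.056 (SE; adjusted p = 0.0368). Without 1 array SLC2A1 lost its call in 5 of 6 fits and PDK1 in all 6, where 1.76% to 3.63% of all genes were called. For 12 of the 14 the CompE arrays were all lower than the DMSO arrays, beside 13% of all genes, whereas that held for 4 of the 52 respiratory chain subunits. Of 7 tissue-restricted isoforms, 4 passed the filter on dim probe sets and 0 passed the limma test (0 at an unadjusted p under 0.05). COX4I2, the lung-type form of subunit 4, had the smallest p (-0.50 ± 0.28, SE, adjusted p = 0.333), at a mean of 64.1 in DMSO.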
